A study of Mus musculus with 9 samples.

Results

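The genes described here encode the proteins of synaptic vesicles and of their release. They were chosen by gene symbol alone, as the synaptotagmins, synapsins, syntaxins and syntaxin-binding proteins, vesicle-associated membrane proteins (VAMPs), SNAP proteins, complexins, Rab3 GTPases, SV2 proteins, RIM and Munc13 proteins, together with Syp, Synpr, Bsn and Pclo. This gave 78 of the 22192 genes in the deposited table. The study sequenced RNA of mouse brain in 9 libraries from 3 groups of KM mice, which are outbred and here labelled male, with 3 libraries a group. The treated libraries came from mice of 18 months given 200 mg/kg of GRP-E1F2, a polysaccharide of ginseng root, by gavage every 2 days for 4 weeks. The aged libraries came from 18-month-old mice given saline on the same schedule, and the young libraries from 5-month-old mice given saline likewise. The labels name no mutation or transgene in any group. The labels call the libraries of a group parallel samples, without saying whether each came from its own animal. The p-values are therefore set against the variation among these libraries alone, and that variation may be technical.

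Transmitter is released when a vesicle fuses with the presynaptic membrane. Fusion is driven by SNARE proteins, one on the vesicle and others on the plasma membrane, which zip into a bundle. Synaptotagmins on the vesicle sense calcium, complexins hold and prime the bundle, Munc13 proteins help its assembly, and RIM, Bassoon and Piccolo hold vesicles at the active zone near calcium channels. Most of these proteins come in several paralogs that differ between brain regions. Syt1 and Vamp2 are the usual forms in the forebrain, while Syt2 and Vamp1 are prominent in the cerebellum, brainstem and spinal cord.

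Values are TPM, a length-corrected share of a library's RNA, so levels of different genes can be set side by side. The table holds no counts and gives no sequencing depth. Each library had between 16715 and 16962 genes above 0. In every group there was 1 library whose value was intermediate at most genes. Treated library 3 was intermediate at 60 of the 71 tested members (67.63% of all tested genes), aged library 2 at 47 (66.32%) and young library 3 at 50 (62.54%). Each of the other 6 libraries was so at 4 to 18 members (15.96% to 18.83% of all tested genes). The labels do not say whether the 3 intermediate libraries are independent of the others of their group. The SDs (n = 3) and p-values below treat them as independent. Counts below are also given with these 3 libraries left out, which leaves 2 per group. The extraction protocol in the labels names retina where the tissue is labelled brain. Retinal marker genes were low, with a sum over 10 genes of 10.2 to 13.7 TPM in the treated, 11.8 to 15.9 TPM in the aged and 16.3 to 16.9 TPM in the young libraries.

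Marker genes of brain regions moved with the groups. The 12 markers of cerebellar neurons summed to 201 to 204.5 TPM in the treated libraries, 2146 to 2519 TPM in the aged and 3456 to 4973 TPM in the young libraries. Most of the treated sum came from Calb1 and Itpr1, which averaged 96.7 and 58.7 TPM there, against 237.5 and 116.7 TPM in the aged libraries. Of all genes tested, 7.47% rose and 13.4% fell in treated against aged brain, at an adjusted p under 0.05 in limma. In aged against young brain 5.48% rose and 11.2% fell. The counts of markers that follow are to be read beside these shares. All 12 cerebellar markers fell in treated against aged brain and 11 fell in aged against young brain. Of these 12, Barhl1 was listed at 0 in treated libraries 1 and 3, and none of the others was at 0 in any library. Cbln3, made by granule cells, was 0.117, 0.111 and 0.343 TPM in the treated libraries, against 277, 277 and 274 TPM in the aged and 363, 509 and 434 TPM in the young. Pcp2, made by Purkinje cells, was 3.16, 9.09 and 5.73 TPM in the treated, 627, 846 and 947 TPM in the aged and 1278, 1916 and 1575 TPM in the young libraries. The 10 markers of hindbrain and spinal cord summed to 0.238 to 0.808 TPM in the treated, 1.76 to 12.1 TPM in the aged and 47.9 to 63.9 TPM in the young libraries, with Hoxb5 and Slc6a5 listed at 0 in every treated library. Of the 7 hindbrain markers tested, 1 fell in treated against aged and 6 in aged against young brain. The 12 markers of neocortical excitatory neurons summed to 314.5 to 519 TPM in the treated, 266 to 398 TPM in the aged and 147 to 232 TPM in the young libraries. Their treated and aged sums overlapped, with 2 of 12 rising, while 6 of 12 rose in aged against young brain. The 12 markers of striatal projection neurons were at 1082 to 3105 TPM in the treated, 1414 to 1909 TPM in the aged and 428 to 1367 TPM in the young libraries, and 0 of 12 passed in limma in either comparison, where 0 and 7 had an unadjusted p under 0.05. General neuronal markers were at 4559 to 4994 TPM over 12 genes in the treated, 4198 to 4594 TPM in the aged and 4063 to 4376 TPM in the young libraries. Thy1, Uchl1 and Eno2 make up most of that sum. The mean log2(TPM + 1) of the same 12 genes was instead highest in the young libraries, lying between 7.395 and 7.539 for treated, between 7.44 and 7.549 for aged and between 7.63 and 7.645 for young brain. Of the 12, 1 rose and 2 fell in treated against aged brain and 1 rose and 4 fell in aged against young brain, with the neurofilament genes Nefm and Nefh lower in both. Of glial lists, 8 of 12 astrocyte and 5 of 12 oligodendrocyte markers fell and 3 of 10 microglial markers rose in treated against aged brain, and 9, 10 and 4 did so in aged against young brain. The labels give the tissue as brain and do not say which parts were collected for each group. In bulk tissue, fewer cells of a type, less RNA per cell and a difference in the parts collected cannot be told apart. The part that these regional differences have in the changes described below was not tested.

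**Figure D1:**
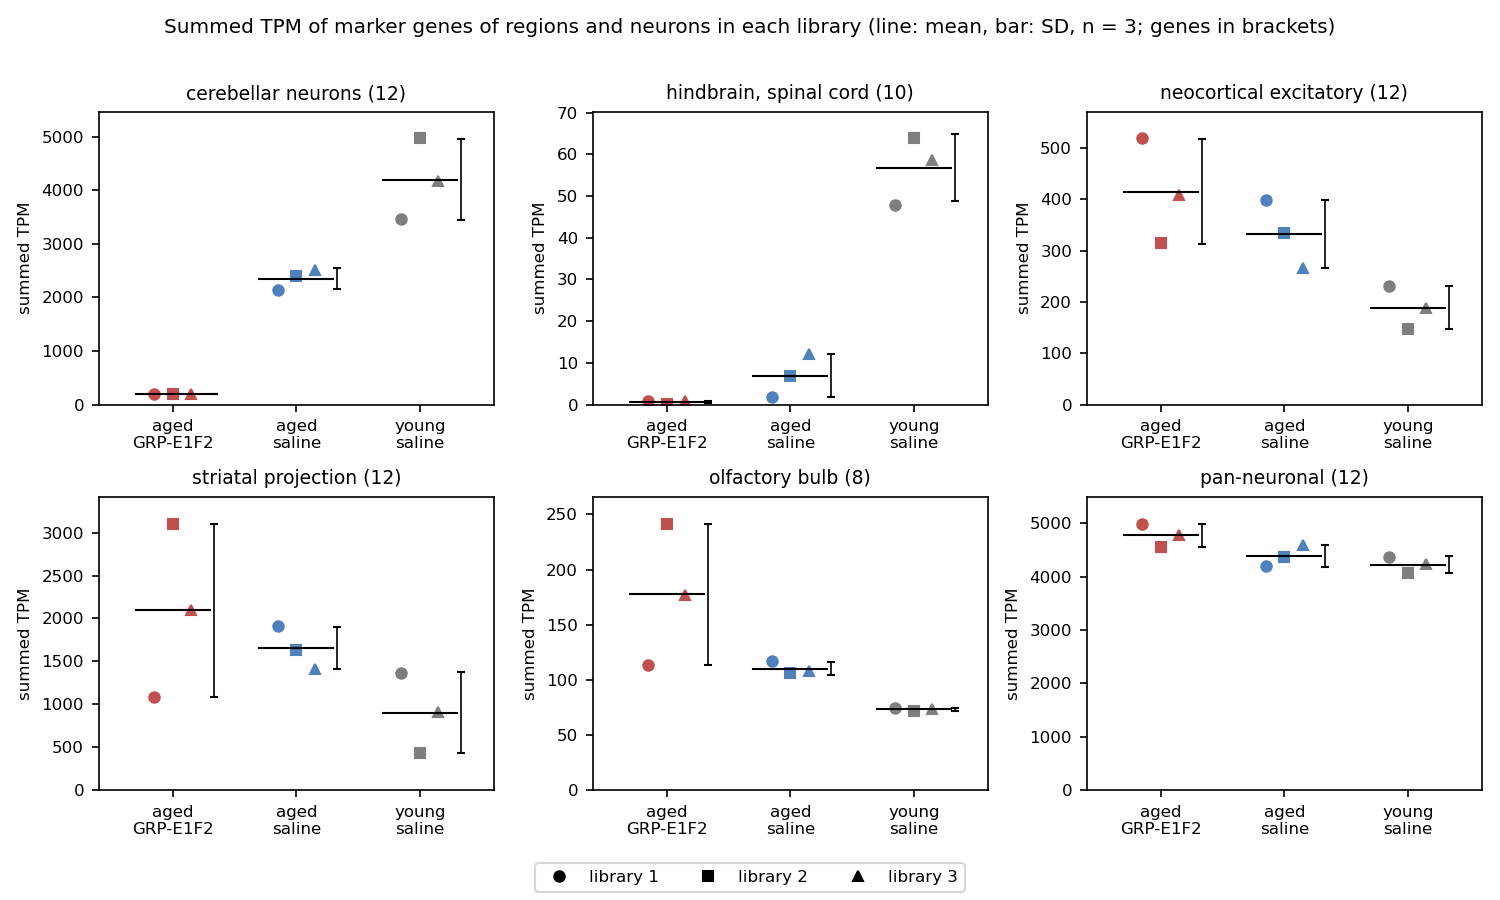
Summed TPM of 6 lists of marker genes in each of the 9 libraries, with 1 point per library, a line at the group mean and a bar for the SD (n = 3). Cerebellar markers are at 201 to 204.5 TPM in the treated libraries, mostly from Calb1 and Itpr1, below every aged and young library. The treated and aged sums of neocortical markers overlap. General neuronal markers sum to 4063 to 4994 TPM. Of their 12 genes 4 fell and 1 rose in aged against young brain, where 11.2% and 5.48% of all genes did.

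The release genes made up 1.54% ± 0.0598 of the RNA in the treated libraries, 1.54% ± 0.0302 in the aged and 1.56% ± 0.0115 in the young (mean ± SD, n = 3 each). Their summed level thus differed between groups by less than the spread among the treated libraries. Of the 78 genes, 71 averaged at least 1 TPM across all 9 libraries and were tested, and each of these was above a mean of 1 TPM in every group. Averaged over the 9 libraries, 4 members exceeded 1000 TPM, 16 lay between 100 and 1000 TPM, 35 between 10 and 100 TPM and 16 between 1 and 10 TPM. The 5 highest, Snap25, Vamp2, Cplx1, Rab3a and Cplx2, held 64.5% of the summed level. The 7 members under 1 TPM were Cplx4, Stx11, Stx19, Syt8, Syt15, Unc13d and Vamp9. Not all members belong to the fusion machinery of the synapse. Of them, 21 are SNAREs known mainly from endosomes, the Golgi, the endoplasmic reticulum or other plasma membrane traffic. Snap91 encodes AP180, a clathrin adaptor that shares only its symbol with the SNAP family.

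The comparison of treated with aged brain asked how these genes differ after GRP-E1F2 at 18 months. Syt2 and Vamp1, the paralogs prominent in cerebellum and brainstem, were lower in the treated libraries. Syt2 averaged 14.1 ± 2.44 TPM in treated and 54.4 ± 2.36 TPM in aged libraries, and Vamp1 averaged 289.6 ± 16.5 TPM in treated and 550.2 ± 31.9 TPM in aged libraries (SD, n = 3 each). All 3 synapsins were higher, as were Vamp2, Syt5, Syt17 and Stxbp6. Of the 71 tested members 11 rose, where 7.47% of all genes tested rose, and 14 fell, where 13.4% of all genes fell, at an adjusted p under 0.05 in limma with Benjamini-Hochberg adjustment over 13301 genes. In either direction 25 of 71 members passed, against 20.8% of all genes. The median log2 fold change of the members was -0.005, and that of all genes tested was -0.015. Beside a single gene, a log2 fold change is given ± its standard error, on the scale of log2(TPM + 1), which understates the change of genes with few TPM. Among all genes tested 994 rose and 1777 fell, or 1425 and 1487 after quantile normalisation, which left the members at 11 and 14. In 15 members all treated libraries lay above all aged libraries (14.9% of all genes), and in 16 they lay below (21.5%), where 36.3% of all genes did either. Without treated library 3 the members that rose were 3, where 350 of all 13301 genes rose. Without aged library 2 they were 3, where 329 of all genes rose. They were 5 without aged library 3, where 728 rose, and 6 without young library 3, where 638 rose. In either direction 10.3%, 10.1%, 16.9% and 15.2% of all genes passed in these omissions, in the same order. The number of members that fell lay between 10 and 17 whichever library was left out, where 1016 to 1848 of all genes fell. With 2 libraries per group 1 member, Stxbp6, rose and 4 fell, Syt2, Vamp8, Syt12 and Vamp1, where 1.86% of all genes passed.

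The comparison of aged with young brain asked what differed between 18 and 5 months under saline. Cplx3 and Stx1a had the largest rises, at 24.4 ± 4.28 and 154 ± 22.7 TPM in aged libraries, against 10.1 ± 1.4 and 73.7 ± 32.8 TPM in young libraries (SD, n = 3 each). Syt1, Syt5, Syt16 and Stxbp6 were higher as well, while Vamp1, Syt2 and Syt9 were lower. Of the 71 tested members 8 rose, where 5.48% of all genes tested rose, and 7 fell, where 11.2% fell. In either direction 15 passed, against 16.7% of all genes, so the share of members called, 15 of 71, was near that of the table. The members had a median log2 fold change of 0.025, and all genes tested had -0.052. Under quantile normalisation the whole-table split of 729 rising and 1488 falling genes became 951 and 1068, and the members' 8 and 7 became 10 and 6. In 17 members the aged libraries all lay above the young (14.7% of all genes), and in 18 they all lay below (26.8%), where 41.5% of all genes did either. Young library 2, which had the highest cerebellar and the lowest neocortical and striatal marker sums of its group, was the lowest young library at 8 of the 8 members that rose and the highest at 5 of the 7 that fell. Without it 2 members rose and 3 fell, and 4.77% of all genes passed in place of 16.7%. The share of all genes called dropped with the members' counts in the other omissions too. Without young library 3 the counts were 2 and 1 (2.79% of all genes), without aged library 2 they were 2 and 1 (2.85%) and without aged library 1 they were 3 and 8 (10%). Without treated library 3, which enters through the shared estimate of spread, they were 3 and 6 (8.81%). With 2 libraries per group no member passed in limma, where 0.0226% of all genes did, and 11 had an unadjusted p under 0.05. The aged libraries stand in both comparisons, so the 2 sets of fold changes are not independent, and their values are set side by side below.

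**Figure D2:**
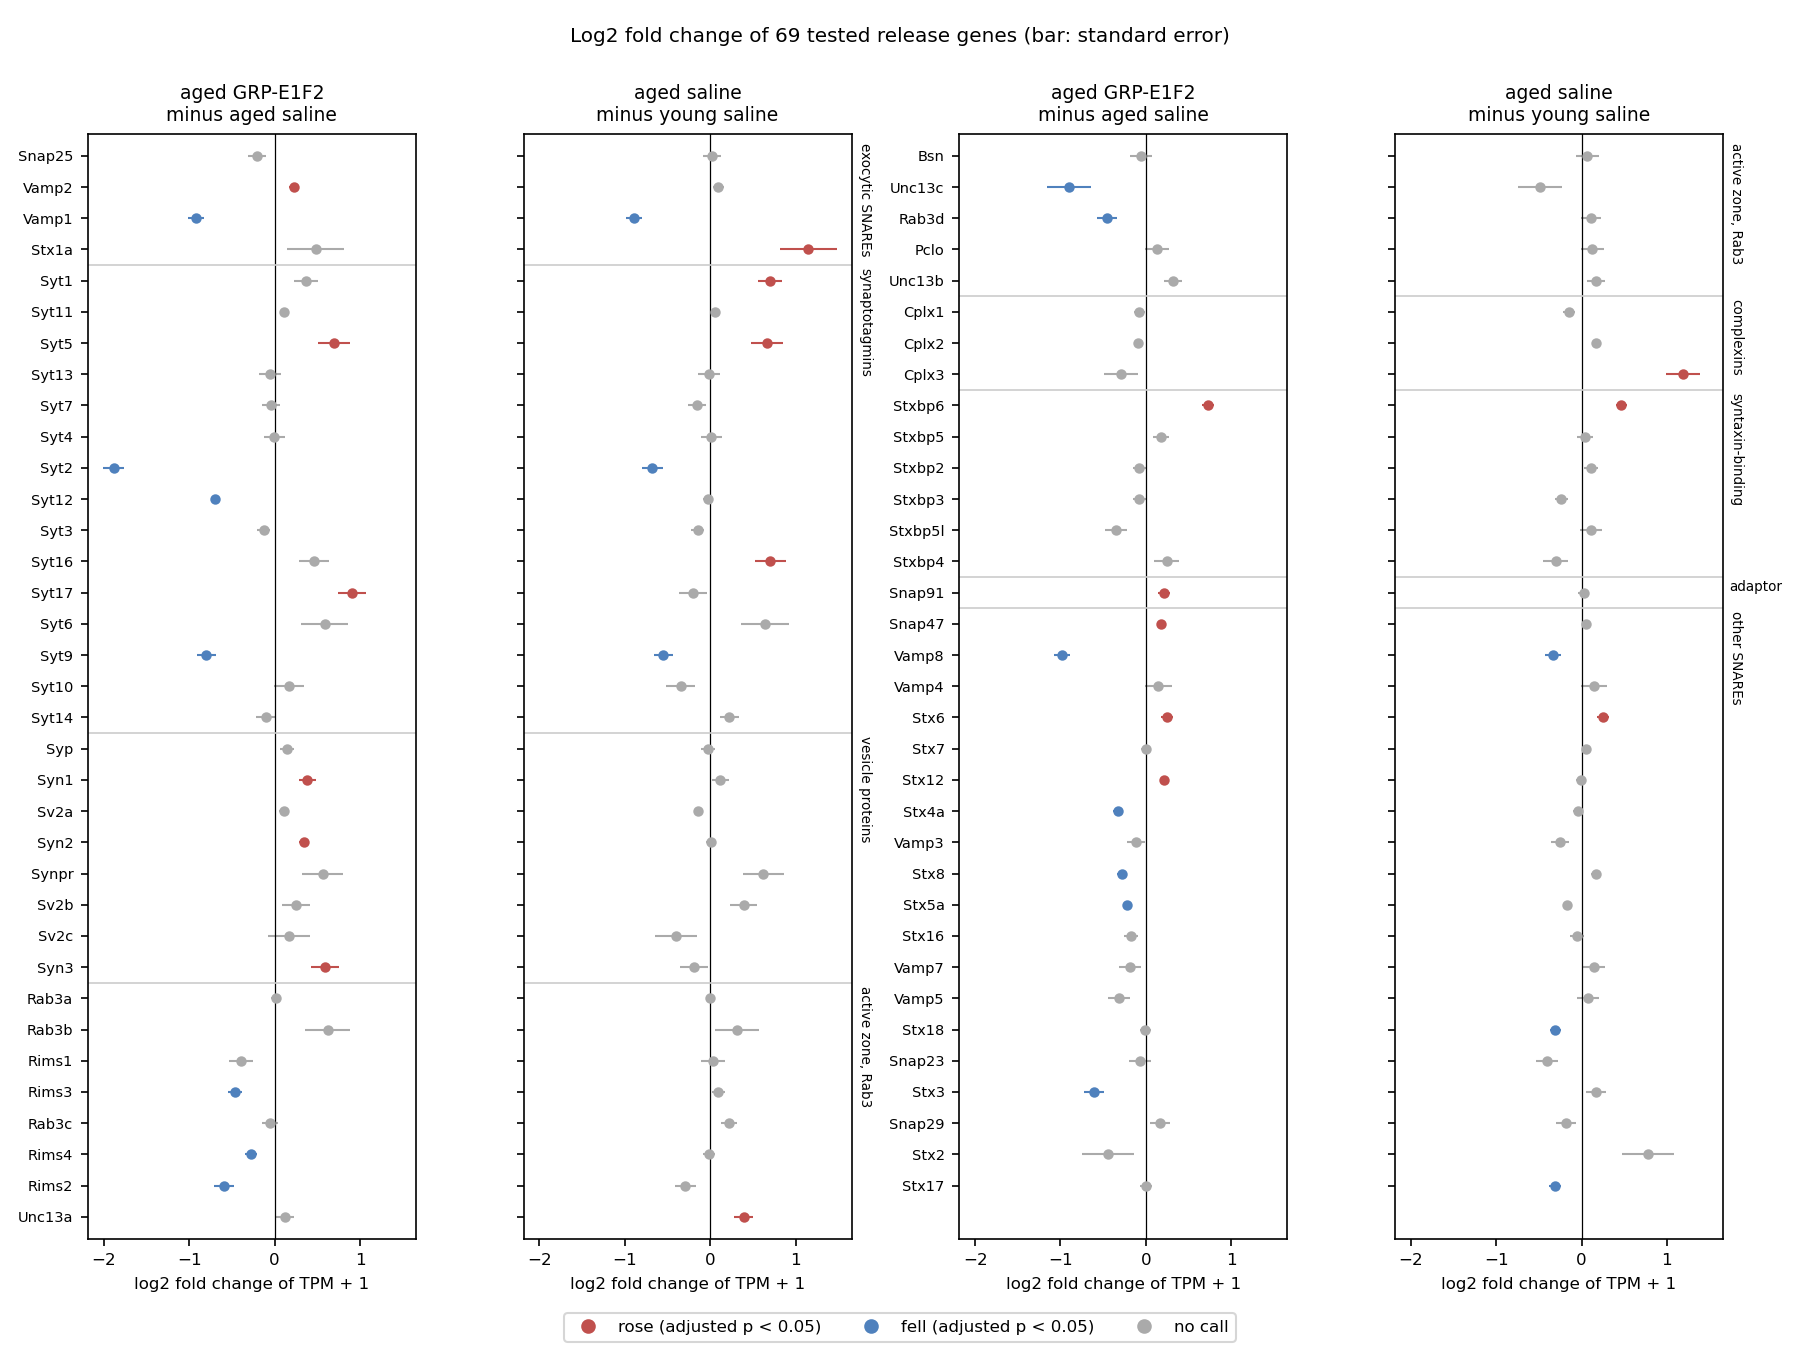
Log2 fold change of TPM + 1, with its standard error, of 69 of the 71 tested members, ordered by role and by mean level within a role, for treated against aged and for aged against young brain (3 libraries per group). Red points rose and blue points fell at an adjusted p under 0.05. Syt2 and Vamp1 lie on the left in both comparisons and Stxbp6 and Syt5 on the right, and the 2 comparisons share the aged libraries.

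The neuronal SNAREs of fast release include Vamp1 and Vamp2 on the vesicle and Stx1a and Snap25 on the plasma membrane. Vamp1 had 305, 272 and 291 TPM in the treated libraries, 514, 566 and 571 TPM in the aged and 897, 1166 and 1023 TPM in the young. No 2 groups overlapped, and every treated library was below every aged library. Vamp1 fell both in treated against aged brain (log2 fold change -0.92 ± 0.09, adjusted p = 0.000257) and in aged against young brain (log2 fold change -0.90 ± 0.09, adjusted p = 0.00181), and both calls held whichever library was left out. Vamp2, its more abundant paralog, had 2918, 2722 and 2791 TPM in the treated libraries, against 2326, 2489 and 2380 TPM in the aged and 2357, 2111 and 2267 TPM in the young. Its treated libraries were all above the other 6, while the aged and young libraries overlapped. Vamp2 rose in treated against aged brain (log2 fold change 0.23 ± 0.06, adjusted p = 0.0291). Vamp2 did not pass after quantile normalisation, with no filter on low genes or in a fit of the 2 groups alone, nor without treated library 1 or 3, without any 1 of the aged libraries or without young library 3 (adjusted p = 0.0537 to 0.098).

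On the plasma membrane, Stx1a had 292, 151 and 223 TPM in the treated libraries, 179, 149 and 134 TPM in the aged and 106, 40.4 and 74.8 TPM in the young. The young libraries were all below the aged ones and spread 2.62-fold among themselves, with young library 2 the lowest. Stx1a rose in aged against young brain (log2 fold change 1.15 ± 0.33, adjusted p = 0.0462) but lost the call without any 1 of the aged libraries, young library 2 or 3, or treated library 3 (adjusted p = 0.0602 to 0.127). Its treated and aged libraries overlapped, and no call was made between them (log2 fold change 0.48, adjusted p = 0.337). Snap25, the highest of all members, had 3186, 2448 and 2780 TPM in the treated libraries, 3573, 3244 and 2877 TPM in the aged and 3106, 3274 and 3154 TPM in the young, and all 3 groups overlapped. It passed neither test (log2 fold change -0.21 ± 0.11, adjusted p = 0.199 for treated against aged, and log2 fold change 0.02 ± 0.11, adjusted p = 0.925 for aged against young).

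**Figure D3:**
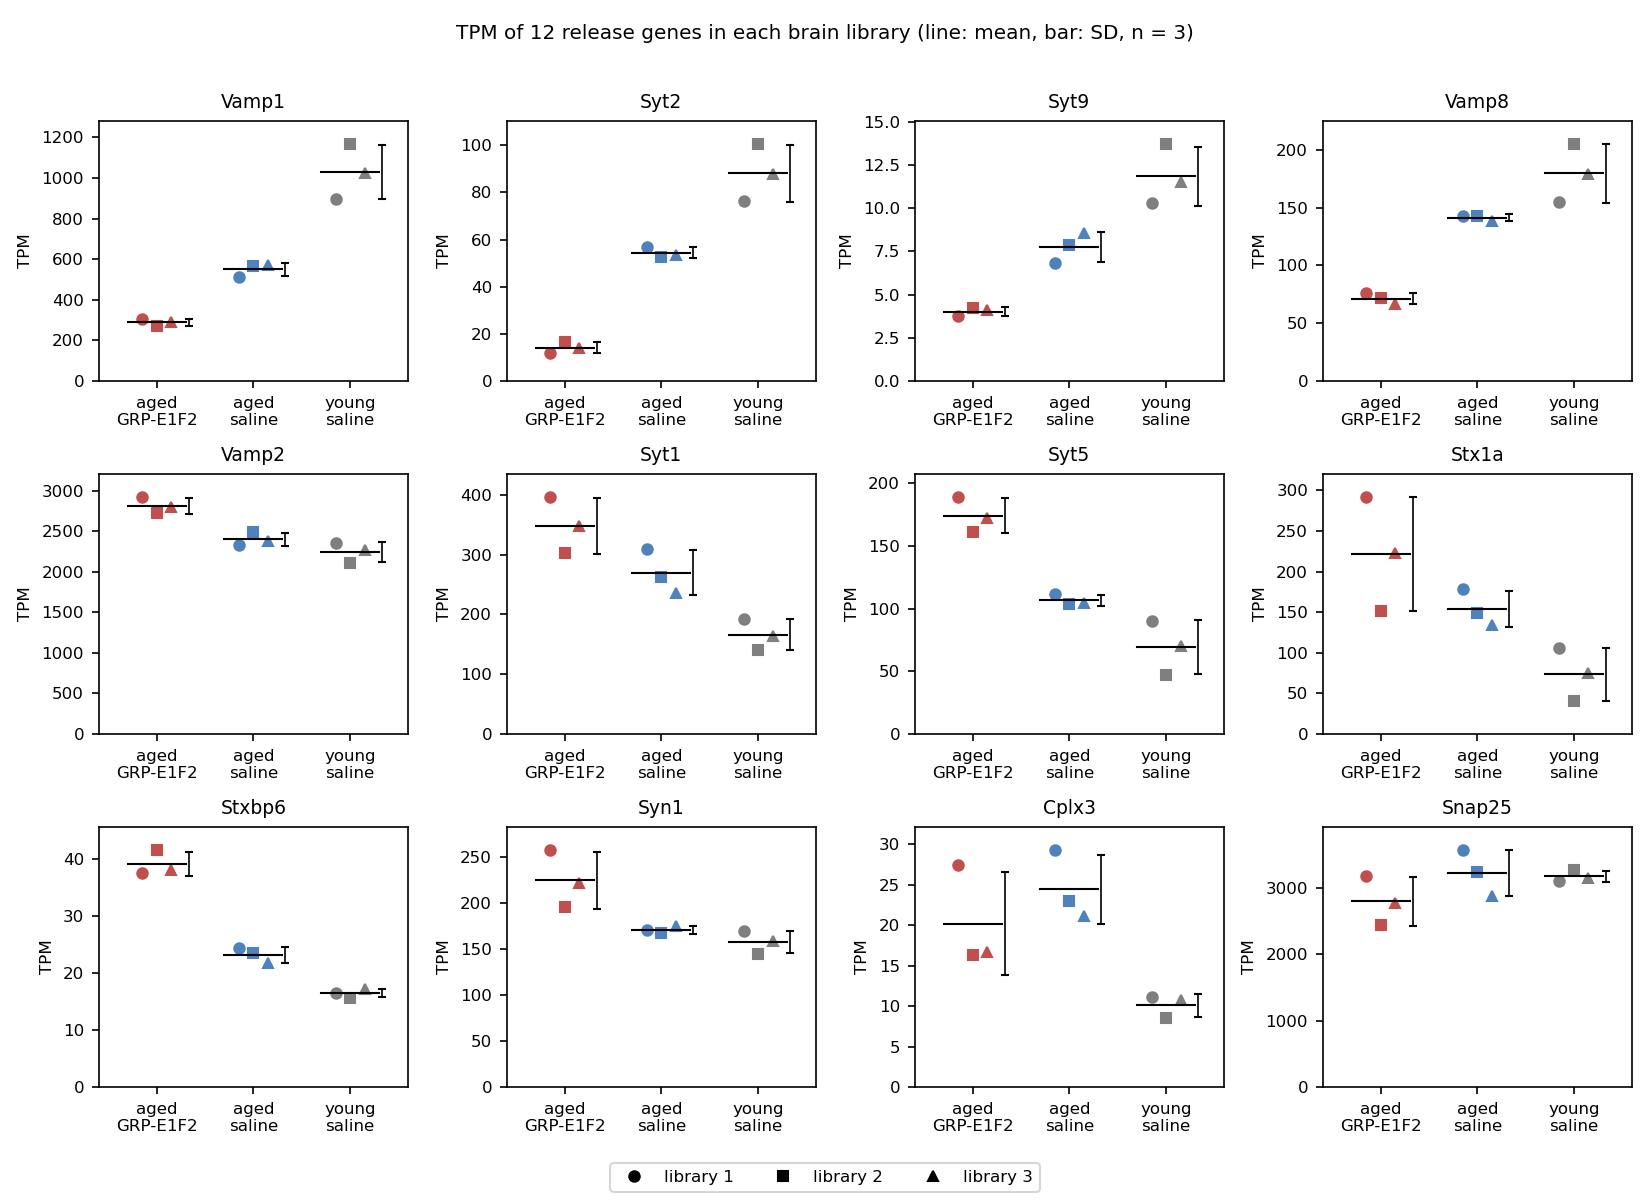
TPM of 12 members in each library, with 1 point per library, a line at the group mean and a bar for the SD (n = 3), each axis starting at 0. Vamp1, Syt2, Syt9 and Vamp8 are lowest in the treated and highest in the young libraries, Syt1, Syt5, Stx1a and Stxbp6 have the opposite order of group means, and the 3 groups overlap for Snap25.

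Synaptotagmins are vesicle proteins with a pair of C2 domains. Syt1, Syt2 and Syt9 are known as the calcium sensors of fast release. Syt2 had 11.8, 16.7 and 13.8 TPM in the treated libraries, 57.1, 52.6 and 53.6 TPM in the aged and 76.3, 100.5 and 87.9 TPM in the young. The 3 groups did not overlap, with the treated libraries lowest. It fell in treated against aged brain (log2 fold change -1.89 ± 0.13, adjusted p = 1.95e-05), the largest change of any member in that comparison, and that call held whichever library was left out and with 2 libraries per group (adjusted p = 0.00733). It also fell in aged against young brain (log2 fold change -0.68 ± 0.13, adjusted p = 0.0123), but not without aged library 2 or young library 3 (adjusted p = 0.0545 to 0.0606). Syt9 followed at a lower level, with 3.75, 4.21 and 4.09 TPM in the treated, 6.8, 7.87 and 8.57 TPM in the aged and 10.3, 13.7 and 11.5 TPM in the young libraries. Again no 2 groups overlapped. It fell in treated against aged brain (log2 fold change -0.80 ± 0.11, adjusted p = 0.00148) and in aged against young brain (log2 fold change -0.55 ± 0.11, adjusted p = 0.016), the second without a call when aged library 2 or young library 2 or 3 was left out (adjusted p = 0.0528 to 0.0655).

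Syt1, the forebrain sensor, had 396, 302 and 347 TPM in the treated libraries, 310, 263 and 235 TPM in the aged and 192, 141 and 165 TPM in the young. The young libraries were all below the others, and the treated and aged libraries overlapped. Syt1 rose in aged against young brain (log2 fold change 0.70 ± 0.14, adjusted p = 0.016), though not without aged library 2 or young library 2 or 3 (adjusted p = 0.0566 to 0.0652), and no call was made for treated against aged brain (log2 fold change 0.37 ± 0.14, adjusted p = 0.0976). Syt5 had 189, 161 and 172 TPM in the treated, 112, 104 and 104 TPM in the aged and 89.9, 47.1 and 70.4 TPM in the young libraries, and no 2 groups overlapped. It rose in treated against aged (log2 fold change 0.70 ± 0.19, adjusted p = 0.0301) and in aged against young brain (log2 fold change 0.67 ± 0.19, adjusted p = 0.043). The first call was lost without treated library 1 or 3 or any 1 of the aged libraries (adjusted p = 0.0513 to 0.0975), and the second without any 1 of the aged libraries, young library 2 or 3 or treated library 3 (adjusted p = 0.067 to 0.119).

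Of the other 11 tested synaptotagmins 3 had a call. Syt17, also known as B/K protein, had 30.8, 21.8 and 26.3 TPM in the treated libraries, against 11.6, 12.7 and 16.3 TPM in the aged and 18.3, 13 and 15.7 TPM in the young. Only the treated libraries stood apart, above all the others. It rose in treated against aged brain (log2 fold change 0.91 ± 0.16, adjusted p = 0.0054) and the call held whichever library was left out. Syt12, which lacks the calcium-binding residues of Syt1, had 24.7, 24.4 and 24.7 TPM in the treated, 38.3, 40.6 and 42.2 TPM in the aged and 39.4, 42.7 and 41.5 TPM in the young libraries, so the treated libraries were nearly level with each other and below all the rest. It fell in treated against aged brain (log2 fold change -0.69 ± 0.06, adjusted p = 6.94e-05), also with 2 libraries per group (adjusted p = 0.0378). The exons of Syt12 share 17.2% of their bases with an antisense gene, A930001C03Rik, and the sources used here do not say whether reads were assigned by strand. Syt16 rose in aged against young brain, at 24.1, 20.1 and 18.3 TPM in the aged and 16.2, 9.37 and 12.2 TPM in the young libraries (log2 fold change 0.70 ± 0.18, adjusted p = 0.032), but not without aged library 1 or 2, young library 2 or 3 or treated library 3 (adjusted p = 0.0563 to 0.103). In all, 2 of the 15 tested synaptotagmins rose and 3 fell in treated against aged brain, where 20.8% of all genes passed in either direction, and 3 rose and 2 fell in aged against young brain, where 16.7% did. Syt11, Syt3, Syt4, Syt6, Syt7, Syt10, Syt13 and Syt14 passed in neither comparison, among them Syt7, the sensor of slow release, at 59.7 ± 9.89 TPM in treated, 61 ± 3.1 TPM in aged and 67.8 ± 2.15 TPM in young libraries (SD, n = 3 each).

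Upstream sequence is shown for both sensors that changed in opposite directions with age, for Stx1a and Vamp1, and for Syn1, so that the promoters of paralogs and partners can be read beside their levels. The letters are the 250 bases before an annotated transcript start, 5′ to 3′ on the gene's own strand, from RefSeq on GRCm38.p6, the build also called mm10. The table of promoters held 61 of the 78 members, in 78 windows of 32851. Capitals mark matches to 4 motifs on either strand, chosen after the windows had been read: the GC box GGGCGG, the cyclic AMP response element TGACGTCA, the left part of the RE1 element, TTCAGCACC, and an element of the estrogen-related receptor type, TCAAGGTCA. Syt1 lies on the minus strand (chr10:109010976-109011225), Syt2 on the plus strand (chr1:134646362-134646611), Stx1a on the plus strand (chr5:135023232-135023481), Vamp1 on the plus strand (chr6:125215331-125215580) and Syn1 on the minus strand (chrX:20920919-20921168). Syt1 and Syt2 each have 2 starts in the table, of which 1 is shown. Their windows reach past the 5′ end of the annotated gene, at chr10:109010980 for Syt1 and chr1:134646534 for Syt2. The last bases of both windows, with some of the GC boxes marked for Syt2, thus lie inside the annotated gene.
Syt1: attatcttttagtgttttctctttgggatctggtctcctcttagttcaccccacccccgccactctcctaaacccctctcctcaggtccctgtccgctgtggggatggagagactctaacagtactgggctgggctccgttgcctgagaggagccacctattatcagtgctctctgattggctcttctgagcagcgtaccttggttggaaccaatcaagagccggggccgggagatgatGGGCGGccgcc
Syt2: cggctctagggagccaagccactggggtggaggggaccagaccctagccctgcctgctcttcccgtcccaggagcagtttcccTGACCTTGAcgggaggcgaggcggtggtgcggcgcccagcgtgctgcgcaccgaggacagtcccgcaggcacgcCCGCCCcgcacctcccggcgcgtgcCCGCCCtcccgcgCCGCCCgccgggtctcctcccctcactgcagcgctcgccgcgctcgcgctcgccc
Stx1a: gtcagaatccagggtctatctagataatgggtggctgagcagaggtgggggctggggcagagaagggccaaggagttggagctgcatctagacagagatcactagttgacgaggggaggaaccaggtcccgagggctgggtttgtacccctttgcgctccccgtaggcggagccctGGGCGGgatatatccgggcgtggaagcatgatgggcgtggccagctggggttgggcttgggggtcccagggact
Vamp1: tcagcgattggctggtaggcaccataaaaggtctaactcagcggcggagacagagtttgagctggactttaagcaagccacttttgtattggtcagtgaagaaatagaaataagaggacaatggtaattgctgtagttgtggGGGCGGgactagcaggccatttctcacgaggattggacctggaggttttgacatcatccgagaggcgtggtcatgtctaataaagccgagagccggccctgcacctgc
Syn1: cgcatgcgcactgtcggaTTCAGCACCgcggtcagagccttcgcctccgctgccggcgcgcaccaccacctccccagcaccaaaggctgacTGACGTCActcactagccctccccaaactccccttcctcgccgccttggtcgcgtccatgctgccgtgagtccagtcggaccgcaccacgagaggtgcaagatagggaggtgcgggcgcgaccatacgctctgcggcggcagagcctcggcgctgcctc

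The Syt2 window held 3 GC boxes and the receptor-type element, and the windows of Syt1, Stx1a and Vamp1 held 1 GC box each. The Syn1 window had no GC box but held the left part of RE1 and the cyclic AMP element. Over the same 250 bases before every start in the table, the GC box was found in 32.7% of all windows and in 47 of the 78 windows of members. The other 3 motifs were rare: the left part of RE1 stood in 0.301% of all windows and in 1 of the members' windows, that of Syn1, the cyclic AMP element in 1.55% and in 2, those of Syn1 and Stxbp3, and the receptor-type element in 0.387% and in 1, that of Syt2. These are matches of letters in a window and not binding sites measured here.

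Complexins bind the assembled SNARE bundle. Cplx1 and Cplx2 are abundant throughout the brain, while Cplx3 is known from retinal ribbon synapses and from deep cortical neurons of the subplate. Cplx3 had 27.5, 16.3 and 16.7 TPM in the treated libraries, 29.2, 22.9 and 21.1 TPM in the aged and 11.1, 8.49 and 10.7 TPM in the young. Every aged library was above every young one, while treated library 1 stood within the aged range and treated libraries 2 and 3 below it. Cplx3 rose in aged against young brain (log2 fold change 1.19 ± 0.20, adjusted p = 0.00863) whichever library was left out. Cplx1 had 2039, 2279 and 2153 TPM in the treated, 2118, 2358 and 2342 TPM in the aged and 2419, 2615 and 2495 TPM in the young libraries, and passed neither test (log2 fold change -0.07 ± 0.07, adjusted p = 0.469, and log2 fold change -0.14 ± 0.07, adjusted p = 0.165 with age). Cplx2 had 945, 1033 and 978 TPM in the treated, 1049, 1080 and 1017 TPM in the aged and 953, 903 and 931 TPM in the young libraries, with the aged above the young but without a call (log2 fold change 0.17 ± 0.05, adjusted p = 0.0556). In treated against aged brain Cplx2 had a log2 fold change of -0.09 (adjusted p = 0.271). None of the 3 tested complexins passed in treated against aged brain in limma, and 0 had an unadjusted p under 0.05, which 35.5% of all genes had.

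Syntaxin-binding proteins chaperone or hold syntaxins. Stxbp6, amisyn, which binds SNAREs in place of a VAMP, had 37.5, 41.5 and 38 TPM in the treated libraries, 24.3, 23.4 and 21.6 TPM in the aged and 16.5, 15.7 and 17.2 TPM in the young. The 3 groups did not overlap, with the treated libraries highest. It rose in treated against aged brain (log2 fold change 0.73 ± 0.07, adjusted p = 0.000148) and in aged against young brain (log2 fold change 0.47 ± 0.07, adjusted p = 0.00572), and both calls held whichever library was left out. No call was made in these comparisons for Stxbp2, Stxbp3, Stxbp4, Stxbp5 and Stxbp5l. Stxbp5, tomosyn, averaged 11.6 ± 0.943 TPM in treated, 10.2 ± 1.43 TPM in aged and 9.82 ± 0.218 TPM in young libraries.

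Active zone proteins and Rab3 GTPases dock and prime vesicles. In treated against aged brain 5 of 13 tested members fell, where 13.4% of all genes fell, and none rose, where 7.47% did. An unadjusted p under 0.05 in limma was found for 8 of 13, against 35.5% of all genes. Rims2, a RIM scaffold, had 23.7, 19.9 and 22.2 TPM in the treated libraries, 40.3, 32.5 and 28.6 TPM in the aged and 38.1, 42.9 and 42.8 TPM in the young. All treated libraries were below all others, and the aged overlapped the young. Rims2 fell (log2 fold change -0.59 ± 0.12, adjusted p = 0.00918). Rims3, a short RIM, had 44.7, 36.4 and 42 TPM in the treated, 60.7, 54.7 and 55 TPM in the aged and 53.5, 52.8 and 52.9 TPM in the young libraries, with the treated again lowest (log2 fold change -0.46 ± 0.08, adjusted p = 0.0039). Rims4, the other short RIM, fell to 29.3 ± 2.33 TPM in treated, against 35.6 ± 1.69 TPM in aged libraries (log2 fold change -0.28 ± 0.07, adjusted p = 0.0217), and not without treated library 3 (adjusted p = 0.052). Unc13c, or Munc13-3, a priming factor of the cerebellum, had 2.19, 6.64 and 4.53 TPM in the treated, 8.86, 8.25 and 8.61 TPM in the aged and 10.9, 13.8 and 12.8 TPM in the young libraries. The treated libraries were all below the aged but spread 3.03-fold among themselves. It fell in treated against aged brain (log2 fold change -0.90 ± 0.26, adjusted p = 0.0378), but not without any 1 of the aged libraries, treated library 3 or young library 3 (adjusted p = 0.0618 to 0.0997). Rab3d fell as well, at 7.14, 5.31 and 5.74 TPM in treated and 9.91, 7.83 and 8.29 TPM in aged libraries (log2 fold change -0.46 ± 0.11, adjusted p = 0.0226), but not without treated library 2 or 3 or aged library 1 (adjusted p = 0.0513 to 0.088).

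With age 1 of the 13 active zone and Rab3 genes was called, where 16.7% of all genes were. Unc13a, or Munc13-1, the main priming factor of the forebrain, had 37.2, 27.5 and 32.8 TPM in the treated, 31.3, 28.9 and 28.9 TPM in the aged and 24.7, 20.4 and 22.3 TPM in the young libraries. The aged libraries were all above the young, and the treated overlapped the aged. Unc13a rose in aged against young brain (log2 fold change 0.39 ± 0.11, adjusted p = 0.0412), but not without any 1 of the aged libraries, young library 2 or 3 or treated library 3 (adjusted p = 0.0577 to 0.142). Rab3a, the most abundant Rab3, had 1107, 1090 and 1095 TPM in the treated, 1035, 1075 and 1150 TPM in the aged and 1064, 1097 and 1100 TPM in the young libraries, and the groups overlapped. It had no call (log2 fold change 0.01 ± 0.05, adjusted p = 0.864 for treated against aged, and log2 fold change -0.002 ± 0.053, adjusted p = 0.987 for aged against young). The giant scaffolds Bsn and Pclo, Bassoon and Piccolo, passed neither test, with Bsn at 14.6 ± 3.26 TPM in treated, 15.1 ± 1.07 TPM in aged and 14.3 ± 0.287 TPM in young libraries, and Pclo at 7.24 ± 1.13, 6.55 ± 1.34 and 5.84 ± 0.107 TPM in the same order.

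Of the 8 proteins of the vesicle itself 3 rose in treated against aged brain, all of them synapsins, and none fell, where 7.47% of all genes rose and 13.4% fell. Synapsins tether vesicles in the reserve pool. Syn1 had 258, 196 and 222 TPM in the treated libraries, against 170.5, 168 and 176 TPM in the aged and 169.6, 145 and 159 TPM in the young. Every treated library was above all the others, and the aged and young libraries overlapped. It rose in treated against aged brain (log2 fold change 0.38 ± 0.10, adjusted p = 0.0234), but not without treated library 3 or aged library 2 (adjusted p = 0.0742 to 0.0867). Syn2 had 194, 171 and 183 TPM in the treated, 137, 145 and 148 TPM in the aged and 143, 141 and 142 TPM in the young libraries, in the same arrangement, and rose (log2 fold change 0.35 ± 0.06, adjusted p = 0.00378) whichever library was left out. Syn3, far lower, had 5.04, 6.39 and 5.91 TPM in the treated, 4.8, 3 and 2.89 TPM in the aged and 3.51, 4.54 and 4.38 TPM in the young libraries, with the treated above the aged. It rose (log2 fold change 0.59 ± 0.16, adjusted p = 0.0309), but not without treated library 2 or 3, aged library 2 or 3 or young library 3 (adjusted p = 0.0518 to 0.119), and its exons share 14.1% of their bases with Timp3 on the opposite strand. Syp, synaptophysin, the highest in TPM of these 8 genes, had 902, 731 and 814 TPM in the treated, 687, 724 and 789 TPM in the aged and 749, 728 and 754 TPM in the young libraries, and passed neither test (log2 fold change 0.15 ± 0.08, adjusted p = 0.225, and log2 fold change -0.02 ± 0.08, adjusted p = 0.877 with age). The exons of Syp share 16.8% of their bases with an antisense gene, Gm14703. Sv2a, the target of the antiepileptic levetiracetam, was at 164, 165 and 166 TPM in the treated, 146, 149.8 and 163 TPM in the aged and 165, 172 and 168 TPM in the young libraries, without a call (log2 fold change 0.11 ± 0.05, adjusted p = 0.174, and log2 fold change -0.14 ± 0.05, adjusted p = 0.0964 with age). None of the 8 vesicle proteins passed in aged against young brain in limma, and 3 had an unadjusted p under 0.05, which 34.3% of all genes had.

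The SNAREs of other membranes changed in both directions. Vamp8, a SNARE of endosomes and secretory granules, had 76.1, 71.6 and 66.4 TPM in the treated libraries, 143, 143 and 138 TPM in the aged and 155, 205 and 179 TPM in the young, and no 2 groups overlapped. It fell in treated against aged brain (log2 fold change -0.98 ± 0.10, adjusted p = 0.000193) whichever library was left out, and in aged against young brain (log2 fold change -0.33 ± 0.10, adjusted p = 0.0442) in a call lost after quantile normalisation or median-of-ratios scaling and without any 1 of the aged libraries, young library 2 or 3 or treated library 3 (adjusted p = 0.0655 to 0.134). Stx3, a plasma membrane syntaxin, had 10.4, 8.04 and 8.33 TPM in the treated and 16.1, 13.6 and 12.6 TPM in the aged libraries and fell (log2 fold change -0.61 ± 0.12, adjusted p = 0.00822). The treated libraries were all below the aged. Stx4a, another plasma membrane syntaxin, fell to 53.9 ± 2.57 TPM in treated, against 68.1 ± 2.51 TPM in aged libraries (log2 fold change -0.33 ± 0.05, adjusted p = 0.00343), Stx8 of late endosomes to 53.7 ± 1.17, against 65.5 ± 3.19 TPM (log2 fold change -0.28 ± 0.05, adjusted p = 0.00644), and Stx5a of the Golgi to 27.3 ± 0.887, against 31.9 ± 1.01 TPM (log2 fold change -0.22 ± 0.06, adjusted p = 0.0253). The last was lost without treated library 2 or 3, aged library 2 or 3 or young library 3 (adjusted p = 0.0543 to 0.0953).

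The 3 SNAREs of other membranes that rose in treated brain were Stx6, Stx12 and Snap47. Stx6, of the trans-Golgi network, had 112, 111 and 109 TPM in the treated, 99.98, 88.7 and 90.9 TPM in the aged and 84.6, 73.2 and 76.7 TPM in the young libraries, without overlap between groups. It rose in treated against aged (log2 fold change 0.25 ± 0.07, adjusted p = 0.032) and in aged against young brain (log2 fold change 0.25 ± 0.07, adjusted p = 0.0375). The first call was lost without any 1 of the treated libraries, aged library 2 or 3 or young library 3 (adjusted p = 0.0596 to 0.127), and the second without treated library 3, aged library 1 or 2 or young library 2 or 3 (adjusted p = 0.0683 to 0.134). Stx12, of recycling endosomes, rose to 71.5 ± 2.88 TPM in treated, against 61.3 ± 2.97 TPM in aged libraries (log2 fold change 0.22 ± 0.06, adjusted p = 0.0261), but not without treated library 1 or 3, aged library 2 or 3 or young library 3 (adjusted p = 0.0502 to 0.104). Snap47 rose to 238 ± 1.31 TPM in treated, against 209.8 ± 4.43 TPM in aged libraries (log2 fold change 0.18 ± 0.04, adjusted p = 0.018), but not without treated library 3 or aged library 2 (adjusted p = 0.0801 to 0.0879). It shares 11.6% of its exon bases with Jmjd4 on the opposite strand. In aged against young brain Stx17, a syntaxin of autophagosomes, fell to 5.72 ± 0.319 TPM in aged, against 7.32 ± 0.192 TPM in young libraries (log2 fold change -0.31 ± 0.07, adjusted p = 0.0225), but not without aged library 2 or young library 2 or 3 (adjusted p = 0.0611 to 0.0919). Stx18, of the endoplasmic reticulum, fell to 21.1 ± 0.609 TPM in aged, against 26.4 ± 1.64 TPM in young libraries (log2 fold change -0.31 ± 0.06, adjusted p = 0.015), but not without aged library 2 or young library 3 (adjusted p = 0.0642 to 0.0683), and shares 19.8% of its exon bases with Gm42858 and 12.5% with Nsg1, both on the opposite strand. Over the 19 tested SNAREs of this kind 3 rose and 5 fell in treated against aged brain, where 7.47% and 13.4% of all genes did. With age 1 rose and 3 fell, and these 4 of 19 were near the 16.7% of all genes called in either direction. Vamp3, Vamp4, Vamp5, Vamp7, Snap23, Snap29, Stx2, Stx7 and Stx16 had no call in either. Snap91, the clathrin adaptor, rose to 102 ± 8.49 TPM in treated, against 87.9 ± 3.56 TPM in aged libraries (log2 fold change 0.21 ± 0.07, adjusted p = 0.0496), a call that only the omission of treated library 2 left in place (adjusted p = 0.0564 to 0.179 without each of the other 8).

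**Figure D4:**
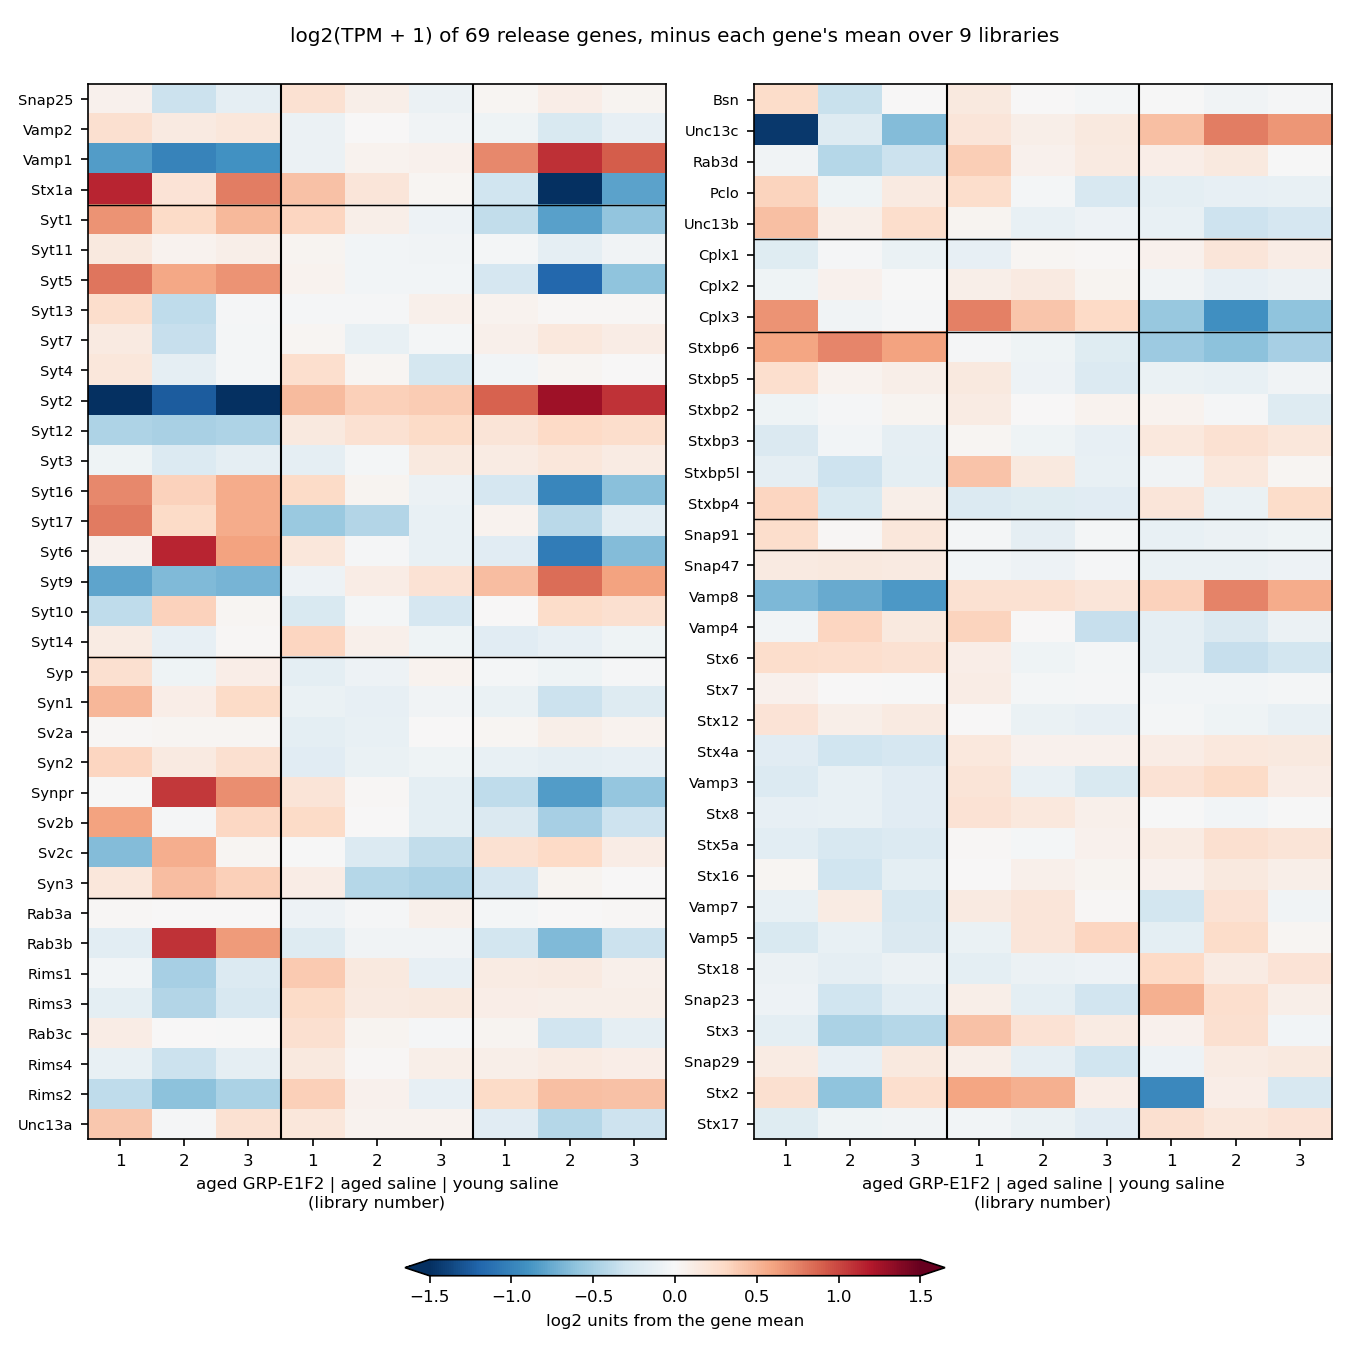
Log2(TPM + 1) of the same 69 members in each of the 9 libraries, as the difference from that gene's mean over all libraries, with colours ending at -1.5 and 1.5 and members in the same order as in the plot of fold changes. Vamp1, Syt2, Syt9 and Vamp8 run from blue in the treated to red in the young libraries, while Stx1a, Syt1, Syt5 and Stxbp6 run from red to blue, and most other rows are pale.

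Set as shares within a pair, several paralogs had a different balance in each group. These shares are described without a test. Syt1 held 97.1%, 94.8% and 96.2% of the summed TPM of Syt1 and Syt2 in the treated libraries, 84.5%, 83.4% and 81.4% in the aged and 71.6%, 58.4% and 65.2% in the young. Vamp2 held 90.5%, 90.9% and 90.6% of the sum with Vamp1 in the treated libraries, 81.9%, 81.5% and 80.7% in the aged and 72.4%, 64.4% and 68.9% in the young. In both pairs no 2 groups overlapped, and the treated libraries had the highest share of the forebrain form. Unc13a averaged 87.6% of the sum with Unc13c in the treated, 77.6% in the aged and 64.1% in the young libraries. The order treated, aged, young in these shares is the reverse of that of the cerebellar marker sums given above. The shares of other pairs lay closer together. Syn1 averaged 55.1% of the sum with Syn2 in the treated, 54.4% in the aged and 52.6% in the young libraries, Rab3a 96.3%, 96.1% and 96.7% of the sum with Rab3c in the same order of groups, and Rims1 51.6%, 50.2% and 51.4% of the sum with Rims3. Cplx2 averaged 31.4% of the sum with Cplx1 in the treated, 31.6% in the aged and 27.0% in the young libraries. Sv2b held 37.8%, 28.1% and 32.95% of the sum with Sv2a in the treated libraries, 35.4%, 30.6% and 26.5% in the aged and 25.4%, 21.05% and 23.9% in the young, so that the young were lowest.

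**Figure D5:**
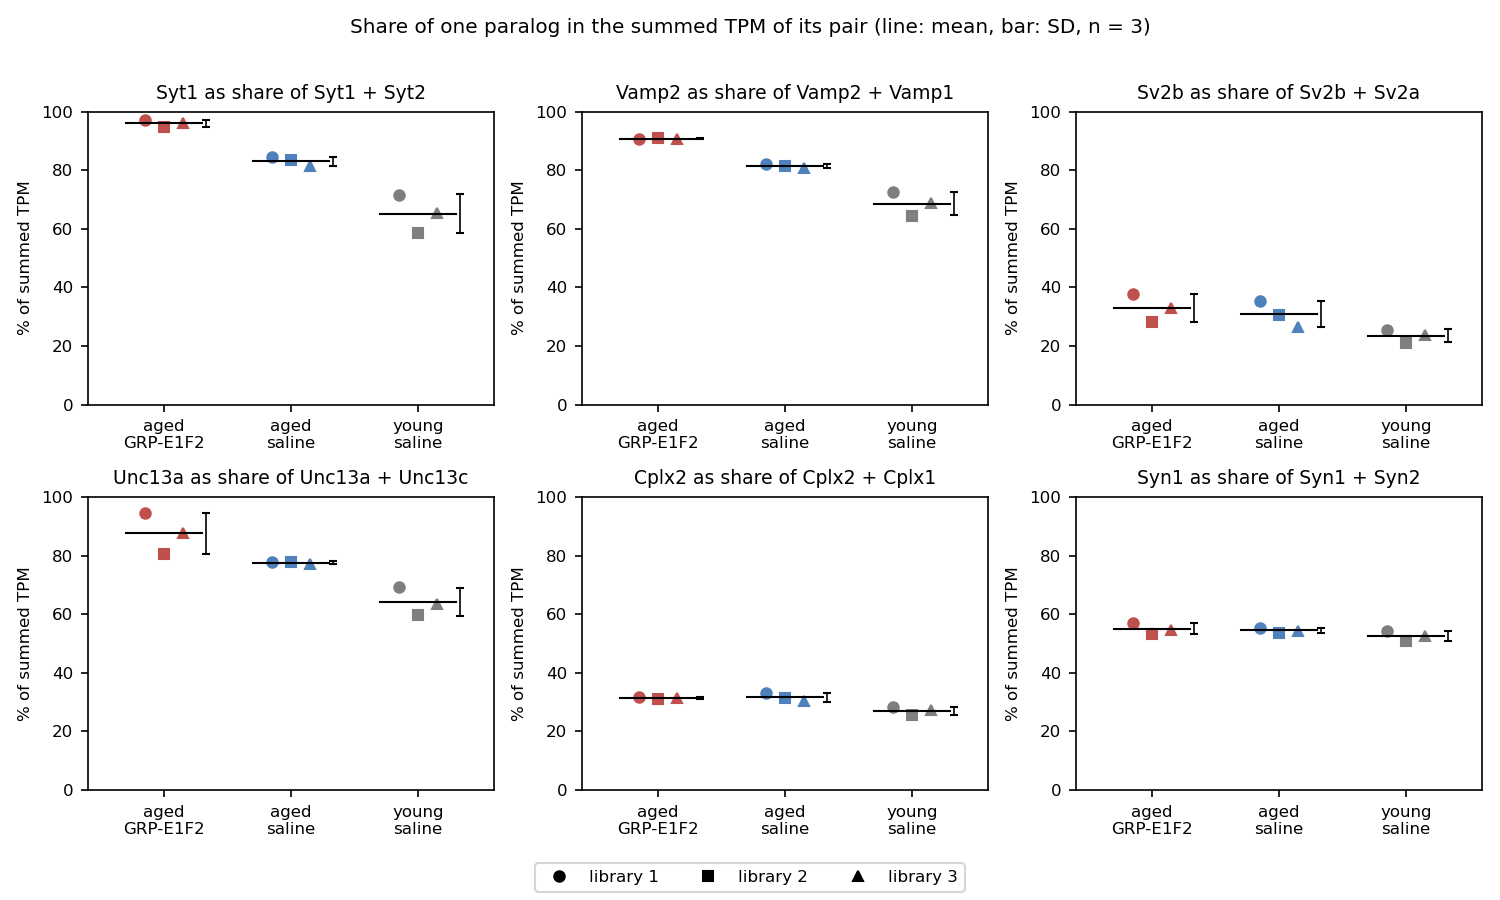
Share of the first gene of a pair in the summed TPM of both, in percent, for 6 pairs in each library, with a line at the group mean and a bar for the SD (n = 3). The shares of Syt1 and Vamp2 average 96.0% and 90.7% in the treated libraries and are lower in the aged and again in the young, while those of Cplx2 average between 27.0% and 31.6%.

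Libraries of a group also differed among themselves. The median member spanned 1.19-fold among the treated, 1.12-fold among the aged and 1.12-fold among the young libraries. In the treated group 6 members spanned over 2-fold: Unc13c, Sv2c, Rab3b, Syt6, Synpr and Syt10. Rab3b had 108, 257 and 189 TPM in the treated libraries, Synpr, a relative of synaptophysin, 81.7, 172 and 134 TPM, and Syt6 8.43, 18.9 and 12.7 TPM. Treated library 2 was the highest for all 6. Just under that limit, Stx2, Stx1a and Cplx3 spanned 1.99-, 1.93- and 1.68-fold and were lowest in treated library 2. That library had the highest sums of striatal markers, at 3105 TPM against 1082 and 2098 TPM in treated libraries 1 and 3, and of olfactory bulb markers, at 242 TPM against 113.5 and 177 TPM. It had the lowest sum of neocortical markers, at 314.5 TPM against 519 and 409 TPM. The 8 anterior pituitary markers spread more widely than any of these lists, at 1040 TPM in treated library 2 against 156 and 600 TPM in treated libraries 1 and 3. They were at 152 to 186.5 TPM in the aged and 174 to 179.5 TPM in the young libraries. Prl, prolactin, was 0.36, 554 and 280 TPM in the treated libraries. The part of these tissues in the members' spread was not tested. In the young group Stx1a, Stx2 and Syt6 spanned over 2-fold, and no member did so in the aged group.

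Treated brain was also set against young brain, which differ in both age and treatment. There 21 of the 71 tested members rose, where 17.2% of all genes rose, and 22 fell, where 29.4% of all genes fell. In either direction 43 of 71 passed, against 46.6% of all genes. Quantile normalisation turned the whole-table split of 2294 rising and 3910 falling genes into 3106 and 3013, and the members' split into 24 and 19. This comparison shares its libraries with both others. Of the members, 12 passed here and in neither of the other 2 comparisons: Rab3b, Unc13b, Syt11, Syt6, Synpr and Sv2b rose, and Cplx1, Vamp3, Stx16, Snap23, Stxbp3 and Syt3 fell. How many of all genes did so was not counted, so the 12 are named without being set against the whole table. Synpr averaged 129 ± 45.4 TPM in treated and 54.3 ± 8.58 TPM in young libraries (log2 fold change 1.18 ± 0.24, adjusted p = 0.00333), and Cplx1 averaged 2157 ± 120.1 TPM in treated and 2510 ± 98.6 TPM in young libraries (log2 fold change -0.22 ± 0.07, adjusted p = 0.0249), the second without a call when treated library 1 or 3 or young library 2 or 3 was left out (adjusted p = 0.0717 to 0.0895). Of the other 11, Unc13b, Syt6, Synpr, Sv2b, Snap23 and Stxbp3 kept the call whichever library was left out. Stx16 lost it without treated library 2 or 3, aged library 2 or any 1 of the young libraries (adjusted p = 0.0587 to 0.115), Syt11 without treated library 1 or 3 or young library 2 or 3 (adjusted p = 0.0676 to 0.0965) and Rab3b without treated library 3 or young library 2 (adjusted p = 0.0535 to 0.0594). Vamp3 and Syt3 lost it without young library 2 (adjusted p = 0.0597 and 0.051). With 2 libraries per group 5 members rose and 6 fell, where 520 and 1193 of all genes did, or 12.9% in either direction. A further 26 tested members passed in none of the 3 comparisons, which was likewise not counted over all genes.

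The members work with other proteins of the vesicle cycle, of which 61 genes in 4 lists were read beside them. In treated against aged brain 10 of the 61 rose and 7 fell, where 7.47% of all genes rose and 13.4% fell. In aged against young brain 6 rose and 6 fell, where 5.48% and 11.2% did. For treated against aged brain, scaling by median of ratios gave 17 and 6, where 1302 and 1613 of all genes rose and fell. A fit of the 2 groups alone gave 3 and 5, where 751 and 1332 did. There 1 rose without treated library 3, aged library 2 or young library 3, where 329 to 638 of all genes rose. Without treated library 1 or aged library 3, 3 rose, where 728 to 845 of all genes did. With age 1 rose and none fell in limma without aged library 2 or young library 2 or 3, where 16 to 19 had an unadjusted p under 0.05. Of all genes 2.79% to 4.77% passed in those omissions. With age also 1 rose and 4 fell without aged library 1 (10% of all genes called), and 3 and 3 without treated library 3 (8.81%). With 2 libraries per group none passed in limma in either comparison, where 1.86% and 0.0226% of all genes did, and 6 and 9 had an unadjusted p under 0.05. Of the 15 genes of the fusion cycle and priming 4 rose and 1 fell in treated brain, against the same 20.8%. Nsf, the ATPase that takes spent SNARE bundles apart, had 266, 242 and 256 TPM in the treated and 214, 206 and 212 TPM in the aged libraries. The treated libraries were all higher, and Nsf rose (log2 fold change 0.27 ± 0.05, adjusted p = 0.00667). Cadps2, a priming factor of dense-core vesicles abundant in the cerebellum, fell to 14.9 ± 2.4 TPM in treated, against 26.1 ± 4.1 TPM in aged libraries (log2 fold change -0.77 ± 0.14, adjusted p = 0.00589). Among 15 partners at the active zone 1 rose and 4 fell in treated brain, where 20.8% of all genes passed in either direction, and 4 rose and 4 fell with age, where 16.7% did. Cacna1a, the pore of the P/Q-type calcium channel that is dense in the cerebellum, had 18.4, 13.9 and 16.6 TPM in the treated and 29, 27.6 and 28.2 TPM in the aged libraries (log2 fold change -0.77 ± 0.10, adjusted p = 0.00114). All its treated libraries were below the aged. Ppfia4, a liprin scaffold, had 14.3 ± 1.77 TPM in treated, 25.1 ± 2.23 TPM in aged and 36.7 ± 4.38 TPM in young libraries and fell in both comparisons (log2 fold change -0.78 ± 0.11, adjusted p = 0.00178, and log2 fold change -0.53 ± 0.11, adjusted p = 0.0187 with age). Rimbp2, which links RIM to calcium channels, had 22.2 ± 3.47 TPM in treated, 14.8 ± 1.85 TPM in aged and 8.74 ± 1.96 TPM in young libraries and rose in both (log2 fold change 0.55 ± 0.16, adjusted p = 0.043, and log2 fold change 0.71 ± 0.16, adjusted p = 0.0233 with age). The calls of Nsf, Cadps2, Cacna1a and Ppfia4 in treated against aged brain held whichever library was left out. Ppfia4 with age was lost without aged library 1 or 2 or young library 2 or 3 (adjusted p = 0.052 to 0.0817), as was Rimbp2 (adjusted p = 0.065 to 0.0788). Rimbp2 in treated against aged brain was lost without treated library 1 or 3, aged library 2 or 3 or young library 3 (adjusted p = 0.0681 to 0.134).

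Of 20 endocytosis genes 2 rose and 2 fell in treated against aged brain, a share near the 20.8% of all genes called. Ap2m1, a subunit of the clathrin adaptor AP-2, rose to 522 ± 26.2 TPM in treated, against 451 ± 11.6 TPM in aged libraries (log2 fold change 0.21 ± 0.06, adjusted p = 0.0285), but not without treated library 1 or 3, aged library 2 or young library 3 (adjusted p = 0.0586 to 0.114). Cltb, a clathrin light chain, fell to 374 ± 6.38 TPM in treated, against 431 ± 30.8 TPM in aged libraries (log2 fold change -0.20 ± 0.06, adjusted p = 0.0404), a call that stayed only when aged library 1 was left out (adjusted p = 0.0535 to 0.122 without each of the other 8). With age 1 of the 20 was called, where 16.7% of all genes were. This gene, Sh3gl3, an endophilin, rose to 30.4 ± 3.12 TPM in aged, against 20.1 ± 1.93 TPM in young libraries (log2 fold change 0.58 ± 0.13, adjusted p = 0.0203), but not without aged library 1 or 2 or young library 2 or 3 (adjusted p = 0.0567 to 0.0857). Of 11 genes that fill vesicles with transmitter 3 rose in treated brain and none fell, where 7.47% of all genes rose and 13.4% fell. Atp6v1e1, a subunit of the proton pump, had 585, 600.4 and 606 TPM in the treated and 552, 496 and 464 TPM in the aged libraries (log2 fold change 0.25 ± 0.07, adjusted p = 0.0286), and was not called without treated library 2 or 3, aged library 2 or 3 or young library 3 (adjusted p = 0.0561 to 0.107). In aged against young brain Slc17a6, the vesicular glutamate transporter of thalamus and brainstem, had 4.06, 8.59 and 12.2 TPM in the aged and 16.8, 18.1 and 17.7 TPM in the young libraries. The aged libraries were all lower, and Slc17a6 fell (log2 fold change -1.10 ± 0.29, adjusted p = 0.034), but not without aged library 2, any 1 of the young libraries or treated library 3 (adjusted p = 0.0558 to 0.107). The thalamic markers, 9 genes that include Slc17a6 itself, summed to 84.5 to 165 TPM in the treated, 169 to 293.5 TPM in the aged and 320.5 to 413 TPM in the young libraries.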

How the data were processed

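RNA-seq was done on 9 libraries labelled brain of KM mice, 3 each of aged GRP-E1F2, aged saline and young saline, grouped by the labels. The authors deposited 1 table of TPM values per gene and library, which sum to nearly the same total in every library. The submitters' processing notes name HISAT2, Picard, SAMtools 0.1.18, GATK and the build mm10. How strand and multiply matching reads were treated is not stated in the sources used here. The files hold no counts, so depth and counting error are unknown, and precision rests on 3 libraries per group.

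Genes that averaged at least 1 TPM across all libraries entered the tests, on log2(TPM + 1) with limma 3.58.1 in R 4.3.3 (empirical Bayes with a trend), in 1 fit of all 9 libraries that share 1 estimate of spread. P-values were adjusted by Benjamini-Hochberg over 13301 genes, with a threshold of 0.05, for 3 comparisons. The steps were tested on simulated data. The text names the members called in the first 2 comparisons, the highest members of each role, the paralog pairs and up to 3 called genes per list and comparison of the 4 lists of pathway genes. The members, the lists of roles, pathway and marker genes and the alternative with 2 libraries per group were chosen with earlier results of these data known. Tables and plots were made with Python 3.11.15, pandas 2.3.3 and matplotlib 3.10.9. Alternatives were other pseudocounts, filters and scalings, a replicate block, fits of 2 groups, robust empirical Bayes and leaving out libraries. Results of a few genes are not reported here, though the counts include them. Exon overlaps used the GENCODE M21 annotation, and promoter letters came from RefSeq.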

Additional observations from a re-analysis of the deposited data

How the results depend on the processing

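Of the alternatives, pseudocounts of 0.1 and 5 TPM, no filter, a mean of at least 5 TPM, quantile normalisation, robust empirical Bayes and the replicate block left each count of members or pathway genes within 1.5 times its value. Median-of-ratios scaling gave 17 rising pathway genes in treated against aged brain in place of 10, where 1302 of all genes rose in place of 994. Fitting only the 2 groups gave 6 rising members and 3 rising pathway genes there, where 751 of all genes rose. With 2 libraries per group 1 member rose and 4 fell in treated against aged, 0 and 0 in aged against young and 5 and 6 in treated against young brain. Of all genes 1.86%, 0.0226% and 12.9% passed, in the same order. The pathway genes then gave 0 and 0, 0 and 0, and 4 and 7. Leaving out 1 library gave 3 to 10 rising and 10 to 17 falling members in treated against aged, 2 to 10 and 1 to 8 in aged against young, and 18 to 23 and 16 to 24 in treated against young brain. For pathway genes it gave 1 to 14 rising and 5 to 8 falling, 1 to 8 and 0 to 10, and 11 to 21 and 12 to 17. The share of all genes called ran from 10.1% to 23%, from 2.79% to 19.8% and from 35.6% to 49.9% in the same order of comparisons. The cause was not tested. All 25 and 15 called members kept their sign in every alternative, and 13 and 3 of them passed whichever library was left out. These members were picked by their calls in the same libraries, so a kept sign is no separate support. Neither count was made over all called genes. Calls in treated against aged brain were also lost in the fit of 2 groups for Rims4, Stx12, Rab3d, Snap47, Unc13c, Snap91, Syn3, Vamp2 and Stx5a, without the filter for Unc13c, Snap91 and Vamp2, after quantile normalisation for Vamp2, with the lower pseudocount or robust empirical Bayes for Snap91, and with the replicate block for Syn3 and Stx5a. With age they were lost without the filter for Stx1a, Syt5, Unc13a and Vamp8, in the fit of 2 groups for Stx6, Syt5 and Vamp8, and for Vamp8 also with both scalings and the replicate block. The labels do not state that the replicate numbers pair libraries across groups. Same-numbered libraries had correlations of deviations between -0.055 and 0.126, and differently numbered ones between -0.134 and 0.123. With 3 libraries per group and ranges this alike, these values cannot settle whether the numbers pair libraries. With the replicate block 13 members rose and 13 fell in treated against aged, 9 and 7 in aged against young, and 21 and 22 in treated against young brain. The pathway genes gave 9 and 6, 5 and 7, and 17 and 12, where 19.5%, 15.4% and 44.7% of all genes passed. Depth is unknown, so no limit of detection can be given.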

Other observations

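The 7 members below a mean of 1 TPM entered no comparison. Stx19, a syntaxin of epithelia, was listed at 0 in every library. Cplx4, a complexin of retinal ribbon synapses, was 0.180 TPM in treated library 1 and listed at 0 in the other 8. Syt8 reached at most 0.123 TPM and Stx11, known from cytotoxic immune cells, at most 0.229 TPM. Syt15 lay between 0.151 and 0.399 TPM, Unc13d, the Munc13 of immune cells, between 0.161 and 0.895 TPM, and Vamp9 between 0 and 1.33 TPM.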
